A study of Homo sapiens with 8 samples.

Results

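The 10 genes described here handle haem and iron: the haem oxygenases HMOX1 and HMOX2, the biliverdin reductases BLVRA and BLVRB, the ferritin subunits FTH1 and FTL, the transferrin receptor TFRC, the transcriptional repressor BACH1, and the haem transporters SLC48A1 and FLVCR1. They were taken by name from a table of 25945 genes, in which each was listed once, and all 10 had enough reads to be tested. HMOX1 was chosen because it rose strongly with BARD1 siRNA in earlier results of these libraries, and the other 9 because they act around it. The differences of the 10 genes between the siRNAs are therefore given as a description, and passing the threshold is stated for each gene only to set it beside the share of all genes that passed.

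The cells were MiaPaCa-2, an established human pancreatic cancer line, in a study of silencing BARD1, which binds BRCA1 and acts with it in DNA repair. One group of 4 libraries came from cells given BARD1 siRNA, labelled as a BARD1 knockdown, and the other group of 4 from cells given a scrambled (SCR) siRNA, labelled as wild type (WT). Both were harvested 48 h after transfection, and polyadenylated RNA was sequenced. The silencing was transient, in 1 cell line, and no label states that the numbered replicates were grown as separate cultures. A p-value here measures the spread among these 8 libraries, which may be technical.

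Haem oxygenase opens the haem ring to give biliverdin, carbon monoxide and free iron. Biliverdin reductase turns biliverdin into bilirubin, and ferritin stores iron in a shell of heavy and light chains. BACH1 represses HMOX1 and the ferritin genes, and leaves DNA when it binds haem. Ferritin and transferrin receptor messages also carry hairpins, the iron responsive elements, to which iron regulatory proteins bind when iron is scarce. Binding in the 5′ untranslated region (UTR) blocks ferritin translation, and binding in the 3′ UTR stabilises the receptor message.

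BARD1 itself averaged 3.96 ± 2.49 CPM (counts scaled to library size, after TMM normalization for library composition) with BARD1 siRNA and 25.6 ± 3.26 CPM with control siRNA (SD, n = 4 each). This was a log2 fold change of -2.69 (SE 0.36), with an adjusted p of 0.00397 by edgeR, and an exact two-sided permutation test over the 8 libraries gave p = 0.0286, the smallest that 4 against 4 libraries allow. Total counts ran from 27565777 to 36212716 with BARD1 siRNA and from 24458665 to 32627983 with control siRNA. The libraries numbered 4 of both groups stood apart from the other 6 on the first principal component, which held 39.98% of the variance, and took 4.44% and 3.26% of their counts from mitochondrial genes, against 0.695% to 2.02% in the others. In addition, BARD1 was less reduced in BARD1 siRNA library 4, at 7.59 CPM against 2.24 to 3.56 CPM in the others. The keratin genes KRT8, KRT18 and KRT19 and the mesenchymal genes VIM and ZEB1 were expressed in every library, while EPCAM, CDH1 and CDH2 were at or below 0.126 CPM. The erythroid markers, 4 of 7 listed in the table, summed to at most 0.305 CPM with BARD1 siRNA and 0.128 CPM with control siRNA. Of 7 macrophage markers 4 were listed, and they summed to 2.56 to 19.1 CPM with BARD1 siRNA and 4.63 to 15.99 CPM with control siRNA, mostly from CD14. The endothelial sum, nearly all CDH5, was 6.74 to 10.2 CPM with BARD1 siRNA and 3.68 to 5.18 CPM with control siRNA, with VWF and KDR at or below 0.196 CPM, and its part in the results was not tested. The fibroblast sum, mostly COL3A1, was 13.6 to 28.2 CPM with BARD1 siRNA and 14.1 to 35.2 CPM with control siRNA, and the hepatocyte sum was at most 1.12 CPM and 0.723 CPM in the same groups.

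Set in order of their level per length, the 10 genes ran from one of the most abundant messages of the cells to a few FPKM (fragments per kilobase, scaled to library size by the authors). FTL averaged 4000.4 ± 316 FPKM with BARD1 siRNA and 3138 ± 331 FPKM with control siRNA, and ranked 2 with BARD1 siRNA and 4 with control siRNA among 14528 tested genes. FTH1 and TFRC followed, with 337 ± 88.1 and 267 ± 68.2 FPKM with BARD1 siRNA and 236 ± 25.3 and 221 ± 29.02 FPKM with control siRNA. The biliverdin reductases stood below them, BLVRB and BLVRA at 45.4 ± 13.9 and 24.6 ± 3.50 FPKM with BARD1 siRNA and at 49.2 ± 10.03 and 23.2 ± 5.15 FPKM with control siRNA. HMOX1 changed places: at 90.4 ± 34.6 FPKM with BARD1 siRNA it lay between TFRC and BLVRB, at rank 649, while at 18.0 ± 1.17 FPKM with control siRNA it lay beside HMOX2, at rank 3673. HMOX2 itself had 17.8 ± 2.06 FPKM with BARD1 siRNA and 15.7 ± 1.35 FPKM with control siRNA. The repressor and the transporters were the lowest. BACH1, FLVCR1 and SLC48A1 had 4.13 ± 0.512, 5.31 ± 0.165 and 7.99 ± 1.06 FPKM with BARD1 siRNA, and 6.91 ± 1.11, 5.92 ± 0.379 and 5.40 ± 0.608 FPKM with control siRNA (SD, n = 4 in each group). With control siRNA the ranges of FTH1 and TFRC overlapped, as did those of BLVRA and HMOX1, of HMOX1 and HMOX2, and of BACH1, FLVCR1 and SLC48A1, so the order of these neighbours was not clear of the spread between libraries. Within each control siRNA library HMOX1 was nevertheless above HMOX2, by 1.03 to 1.32 times, and BLVRA above HMOX1. With BARD1 siRNA the ranges of FTH1 and TFRC overlapped too, as did those of HMOX1 and BLVRB. In BARD1 siRNA library 4 HMOX1, at 51.6 FPKM, lay below BLVRB, at 65.6 FPKM.

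**Figure D1:**
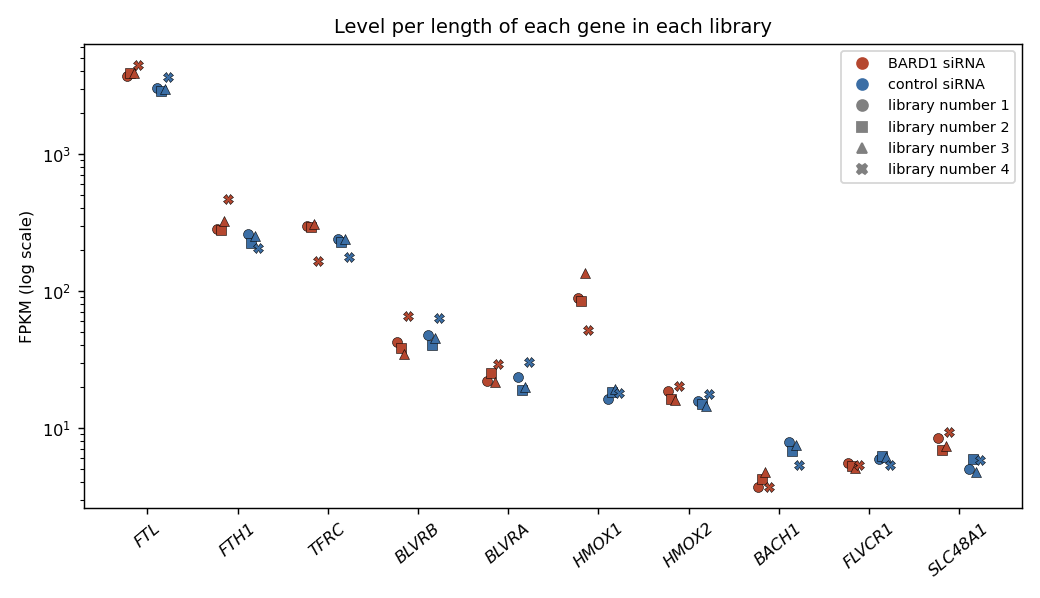
Level per length (FPKM, log scale) of each gene in each library, BARD1 siRNA left of control siRNA within a gene, with marker shapes for library numbers 1 to 4; genes are ordered by their mean with control siRNA. FTL averages 4000.4 FPKM with BARD1 siRNA and 3138 FPKM with control siRNA, the transporters and BACH1 lie below 10 FPKM, and HMOX1 is the gene whose groups lie farthest apart.

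HMOX1, which encodes the inducible haem oxygenase, rose, and stood higher in every BARD1 siRNA library. It had 165, 159.6, 252 and 87.8 CPM in BARD1 siRNA libraries 1 to 4, against 30.2, 34.1, 35.8 and 31.3 CPM in control siRNA libraries 1 to 4. The groups were far from overlapping, library 3 was the highest and library 4 the lowest with BARD1 siRNA, and the control libraries lay close together. The mean was 166 ± 67.2 CPM and 32.9 ± 2.53 CPM (SD, n = 4 each), 5.06-fold higher, with a log2 fold change of 2.34 (SE 0.26). That was rank 6 among the 14528 genes tested when ordered from the largest rise. The coefficient of variation was 40.4% with BARD1 siRNA and 7.69% with control siRNA. In the pairs numbered 1 to 4 the log2 difference was 2.45, 2.23, 2.82 and 1.49, and without both libraries numbered 4 the log2 fold change was 2.52 (SE 0.12). HMOX1 passed the threshold in every setting tried. In bulk RNA, more cells with the message and more message per cell cannot be told apart. HMOX1 lies on GRCh37 chromosome 22, 35776354 to 35790207 (ENSG00000100292), and no other gene of the table overlapped it.

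HMOX2, the constitutive haem oxygenase, did not pass the threshold. It ranged from 34.7 to 40.7 CPM with BARD1 siRNA and from 31.97 to 35.9 CPM with control siRNA, with a log2 fold change of 0.17 (SE 0.09). It was higher in all 4 pairs, by 0.12 to 0.26 on the log2 scale, but the groups overlapped. Within each library, HMOX1 made up 82.7%, 83.9%, 89.5% and 71.8% of the summed FPKM of both haem oxygenases in BARD1 siRNA libraries 1 to 4, against 51.2%, 54.9%, 56.9% and 50.7% in control siRNA libraries 1 to 4. The isoforms were thus near equal in control cells, while HMOX1 predominated in every BARD1 siRNA library. The gene model of HMOX2 (GRCh37 chromosome 16, 4524691 to 4560348, ENSG00000103415) overlaps NMRAL1 on the other strand, whose mean count was 80.4% of that of HMOX2, and no source used here tells if reads were assigned by strand.

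The next step of the pathway, biliverdin reduction, showed no gene past the threshold. BLVRA, the main reductase of adult tissue, had 25.7 to 31.6 CPM with BARD1 siRNA and 22.4 to 33.4 CPM with control siRNA, a log2 fold change of 0.08 (SE 0.14). BLVRB, which reduces another biliverdin isomer and flavins, had 49.3 to 85.3 CPM with BARD1 siRNA and 57.6 to 84.1 CPM with control siRNA, a log2 fold change of -0.13 (SE 0.18). In both genes library 4 was the highest of its group, with each siRNA. The difference of BLVRB was below 0 in pairs 1 to 3, from -0.39 to -0.06, and 0.02 in pair 4. BLVRA lies on GRCh37 chromosome 7, 43798279 to 43846939 (ENSG00000106605), and BLVRB on chromosome 19, 40953696 to 40971747 (ENSG00000090013).

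BACH1, the haem-sensing repressor of HMOX1, fell. It had 21.9, 25.3, 28.2 and 20.03 CPM in BARD1 siRNA libraries 1 to 4, against 46.3, 40.3, 44.5 and 29.5 CPM in control siRNA libraries 1 to 4. Every BARD1 siRNA library lay below every control library, though BARD1 siRNA library 3 and control siRNA library 4 were close. Its log2 fold change was -0.75 (SE 0.16), and it was lower in all 4 pairs, by -1.08, -0.67, -0.66 and -0.56. The ratio of HMOX1 to BACH1 in FPKM was 13.9 to 28.3 with BARD1 siRNA and 2.07 to 3.36 with control siRNA. BACH1 no longer passed without any 1 of the libraries numbered 1 to 3, where its log2 fold change was -0.84 to -0.68. It lies on GRCh37 chromosome 21, 30566392 to 31003071 (ENSG00000156273), and 6 genes that overlap it each held at most 1.37% of its mean count.

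Of the haem transporters, SLC48A1 (HRG1), which brings haem out of endosomes and lysosomes into the cytosol, rose. It had 25.7, 21.5, 22.5 and 26.1 CPM in BARD1 siRNA libraries 1 to 4, against 15.3, 18.3, 14.7 and 16.8 CPM in control siRNA libraries 1 to 4. The groups did not overlap, and the log2 fold change was 0.56 (SE 0.12), with 0.75, 0.23, 0.62 and 0.63 in pairs 1 to 4. Its gene model (GRCh37 chromosome 12, 48147699 to 48176536, ENSG00000211584) overlaps HDAC7 on the other strand, whose mean count was 162% of that of SLC48A1, so the 2 genes' reads cannot be told apart if the counting ignored strand. Like BACH1, SLC48A1 missed the threshold without any 1 of the libraries numbered 1 to 3. FLVCR1, described as a haem exporter and as a choline transporter, did not pass. It had 29.5 to 33.3 CPM with BARD1 siRNA and 30.4 to 37.9 CPM with control siRNA, a log2 fold change of -0.16 (SE 0.10), and was lower in all 4 pairs, by -0.27 to -0.04. FLVCR1 lies on GRCh37 chromosome 1, 213031597 to 213072705 (ENSG00000162769).

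**Figure D2:**
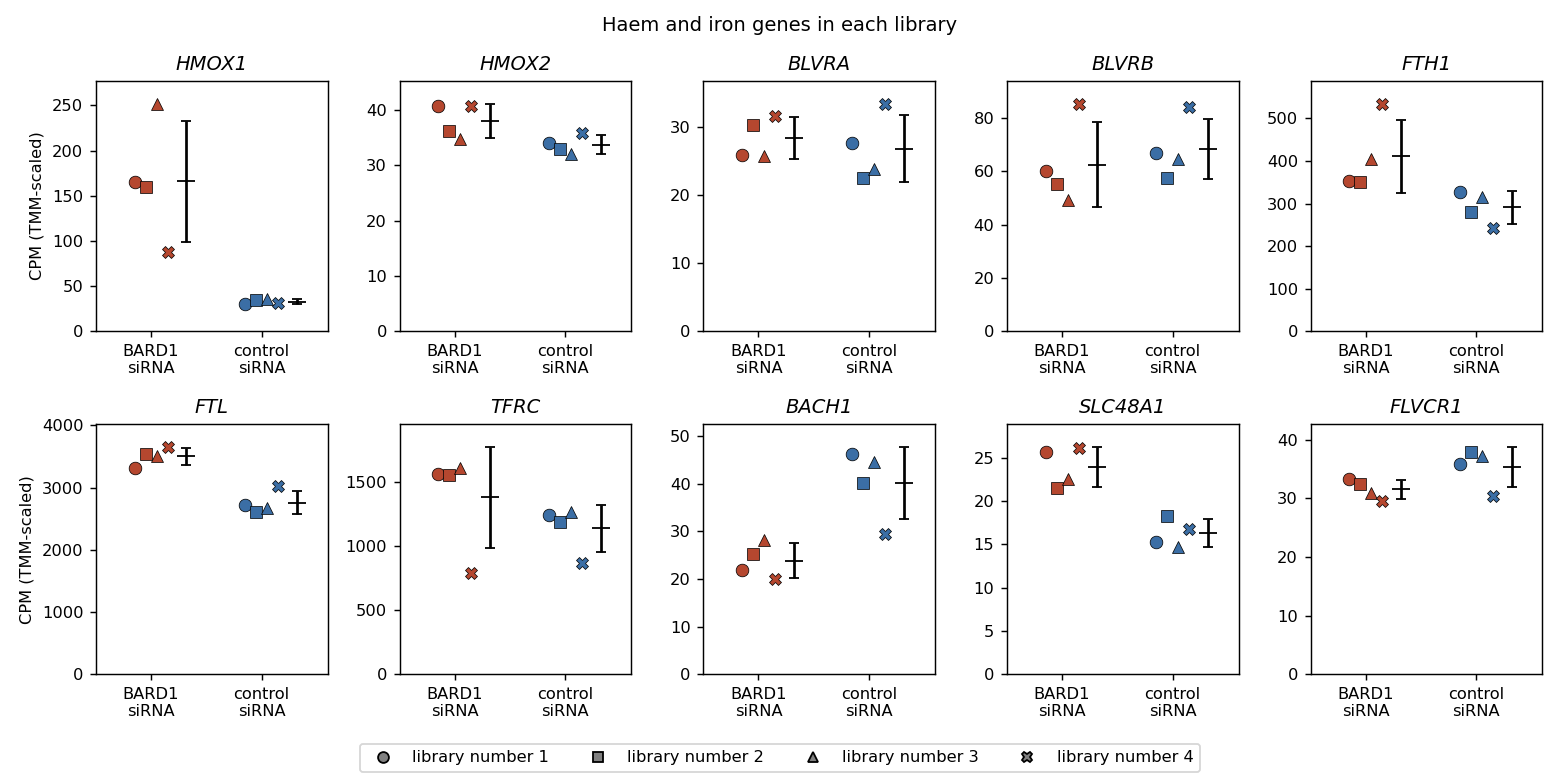
CPM (TMM-scaled) of each gene in each library, BARD1 siRNA on the left and control siRNA on the right of each panel, with marker shapes for library numbers and bars for the mean ± SD of 4 libraries. HMOX1 and BACH1 lie at 87.8 to 252 and 20.03 to 28.2 CPM with BARD1 siRNA, against 30.2 to 35.8 and 29.5 to 46.3 CPM with control siRNA, and both TFRC groups hold a low library numbered 4.

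For ferritin and the transferrin receptor the iron responsive elements were read from GENCODE release 29 transcripts (GRCh38), because they are the part of these messages through which iron acts. They were found as a C, 5 bases, the loop CAGTGN or CAGAGN with a last base other than G, and 5 bases that pair with the first 5, G-T pairs allowed, on the message strand. Capitals mark the loop.
FTH1, 5′ UTR, chr11:61967574-61967602, minus strand: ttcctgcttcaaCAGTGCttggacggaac
FTL, 5′ UTR, chr19:48965335-48965363, plus strand: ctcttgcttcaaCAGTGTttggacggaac
TFRC, 3′ UTR, chr3:196051029-196051057, minus strand: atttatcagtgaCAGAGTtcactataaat
TFRC, 3′ UTR, chr3:196050979-196051007, minus strand: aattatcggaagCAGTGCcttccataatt
TFRC, 3′ UTR, chr3:196050575-196050603, minus strand: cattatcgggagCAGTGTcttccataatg
TFRC, 3′ UTR, chr3:196050510-196050538, minus strand: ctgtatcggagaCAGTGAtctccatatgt
TFRC, 3′ UTR, chr3:196050463-196050491, minus strand: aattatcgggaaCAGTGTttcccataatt
FTH1 and FTL each held 1 such hairpin and TFRC held 5, while the other 7 genes held none. The pattern occurred in a UTR of 178 of 12100 tested genes with annotated UTRs, or 1.47%. A match describes the letters only.

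FTL, the ferritin light chain, rose, and FTH1, the heavy chain that oxidises iron, was higher without passing the threshold. FTL had 3321, 3535.5, 3503 and 3654 CPM in BARD1 siRNA libraries 1 to 4, against 2719, 2604, 2677 and 3023 CPM in control siRNA libraries 1 to 4. The groups did not overlap, the log2 fold change was 0.35 (SE 0.08), and the difference was even over the pairs, from 0.27 to 0.44. FTL missed the threshold without any 1 of the libraries numbered 1 to 3, and also without a filter on low counts, while its log2 fold change was 0.32 to 0.37 in these settings. FTH1 had 353, 351, 404 and 534 CPM in BARD1 siRNA libraries 1 to 4, against 327, 279, 316 and 242 CPM in control siRNA libraries 1 to 4. These groups did not overlap either, but the pair numbered 4 held the highest and the lowest library: its log2 difference was 1.14, against 0.11, 0.33 and 0.35 in pairs 1 to 3. The log2 fold change was 0.50 (SE 0.15) over all libraries and 0.26 (SE 0.06) without both libraries numbered 4, and FTH1 passed the threshold there, without BARD1 siRNA library 4 (0.34), by DESeq2 (0.50) and with the replicate number as a block (0.48). FTL stood at 9.57 to 14.1 times FTH1 in FPKM with BARD1 siRNA and 11.6 to 17.5 times with control siRNA. On GRCh37 FTH1 lies on chromosome 11, 61727190 to 61735132 (ENSG00000167996), and FTL on chromosome 19, 49468558 to 49470135 (ENSG00000087086). Both ferritin genes have processed copies that can share reads. The table listed 15 such copies of FTH1 with 0.837% to 1.29% of its reads, and 3 of FTL with at most 0.068%, so the counts of both, and their ratio, are uncertain to the extent that reads with several matches were dropped.

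TFRC, which takes up transferrin-bound iron at the cell surface, did not pass the threshold over all libraries, with a log2 fold change of 0.28 (SE 0.22). It had 1555, 1553, 1608 and 788 CPM in BARD1 siRNA libraries 1 to 4, against 1239.7, 1183, 1259 and 866 CPM in control siRNA libraries 1 to 4. Libraries 1 to 3 of the groups did not overlap, whereas library 4 was the lowest in each group. The log2 difference was 0.33, 0.39 and 0.35 in pairs 1 to 3 and -0.14 in pair 4. Without both libraries numbered 4 it was 0.36 (SE 0.04), and TFRC passed the threshold there, without BARD1 siRNA library 4 (0.47), and with the replicate block, where the value was 0.23 (SE 0.07). What part the other features of libraries 4 have in these values was not tested. Ferritin and the receptor thus both stood higher with BARD1 siRNA in pairs 1 to 3, and in pair 4 FTH1 was higher and TFRC lower. TFRC lies on GRCh37 chromosome 3, 195754054 to 195809060 (ENSG00000072274).

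**Figure D3:**
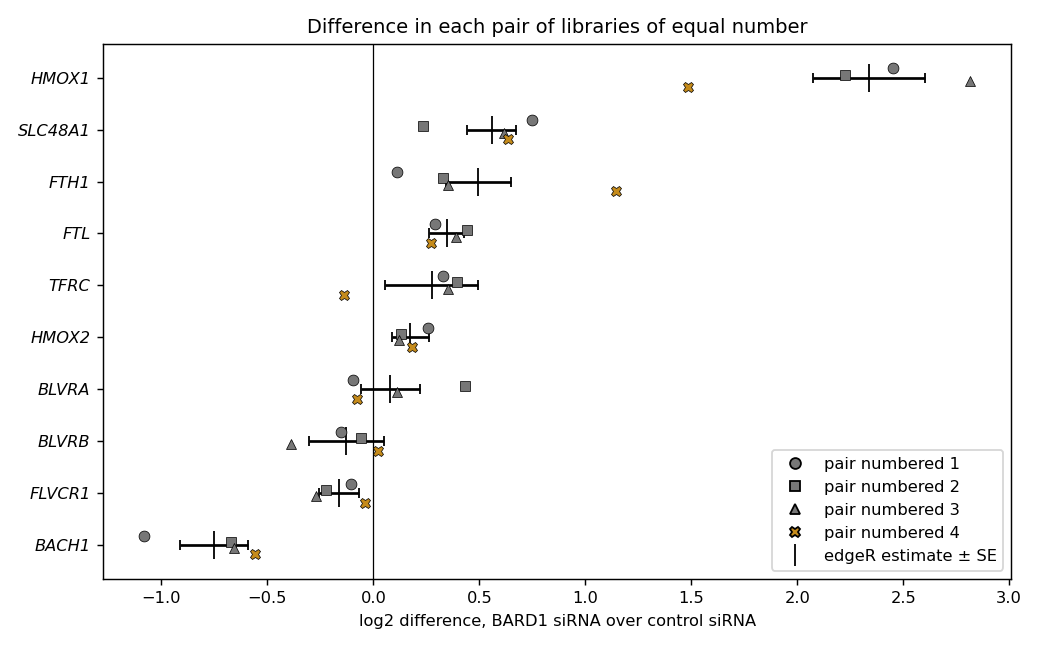
Log2 difference in CPM, BARD1 siRNA over control siRNA, in each pair of libraries of equal number (markers; the pair numbered 4 in gold), with the edgeR estimate over all libraries and its SE (black). HMOX1 lies at 1.49 to 2.82, BACH1 at -1.08 to -0.56, and the pair numbered 4 is set apart in HMOX1, FTH1 and TFRC.

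Over the 10 genes, 3 rose and 1 fell (edgeR quasi-likelihood test, adjusted p under 0.05 over all genes). Of all 14528 genes tested, 5.05% passed, 1.82% higher and 3.22% lower. The counts behind these shares were 265 higher and 468 lower, and 413 higher and 470 lower with upper-quartile scaling. The median log2 fold change was 0.22 over the 10 genes and 0.01 over all genes. Of the 10 genes, 4 lay above the control range without overlap and 1 below, where 5.46% of all genes lay above and 7.52% below. In all 4 pairs 5 genes were higher and 2 lower, while 19% and 20.9% of all genes were. With the replicate block 5 of the 10 rose and 1 fell, where 23.6% of all genes passed, 11% higher and 12.6% lower, and without both libraries numbered 4 the counts were again 5 and 1, where 30.4% passed, 15% higher and 15.4% lower. The authors' deposited table lists 4 of them higher and 1 lower at an adjusted p under 0.05, FTH1 being the addition, where 9.61% of its genes with an adjusted p passed, 4.24% higher and 5.37% lower. As the genes were chosen with this comparison known, nothing is read from these counts.

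None of the 10 messages held the octamer ATACAGAA or its heptamers ATACAGA and TACAGAA in a 3′ UTR on the message strand, BACH1 with up to 3315 bases of 3′ UTR included. The heptamers are parts of the octamer, which was chosen after earlier results of these libraries had shown it among genes that fell. In the annotation used here the octamer stood in the 3′ UTR of 134 of 456 genes that fell, or 29.4%. It stood in 2.79% of 251 that rose and in 6.42% of all 12100. The octamer or a heptamer stood in 61.6% of the genes that fell, 24.3% of those that rose and 25.3% of all.

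The rest of haem and iron metabolism was read from 6 lists chosen by function, with 81 genes tested outside the 10. Of these, 4 rose, 3 fell and 74 did not pass, with a median log2 fold change of -0.04, against 0.01 over all genes. Of all genes tested, 1.82% rose and 3.22% fell. With the replicate block 12 of the 81 rose and 13 fell, where 11% of all genes rose and 12.6% fell, so the blocked counts lay near the share of all genes. Of the 7 that passed, 4 lay in haem synthesis, the pathway that makes the substrate of HMOX1.

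Of 12 haem synthesis genes, 2 rose, 2 fell and 8 did not pass, with a median of -0.06. ALAS1, the rate-limiting first enzyme, which haem represses, rose to 123, 134, 144 and 91.0 CPM in BARD1 siRNA libraries 1 to 4, against 82.1, 86.4, 86.2 and 70.8 CPM with control siRNA. Its log2 fold change was 0.60 (SE 0.14), with an edgeR adjusted p of 0.0393. CPOX, a late mitochondrial step, rose to 46.1 ± 4.77 CPM with BARD1 siRNA, against 32.02 ± 1.56 CPM with control siRNA (0.52, SE 0.09, adjusted p = 0.0154). FECH, the ferrochelatase that inserts iron in the last step, fell to 41.7, 41.2, 39.8 and 54.6 CPM with BARD1 siRNA, against 70.7, 79.1, 81.1 and 84.9 CPM with control siRNA. The log2 fold change of FECH was -0.83 (SE 0.11, edgeR adjusted p = 0.00473). UROS, a middle step, fell to 33.3 ± 9.72 CPM with BARD1 siRNA, against 56.6 ± 5.35 CPM with control siRNA (-0.77, SE 0.18, adjusted p = 0.0379). The first enzyme and the last thus moved in opposite directions. The groups did not overlap in any of these 4 genes, where they did not in 13% of all genes. As the 4 were named because they passed, this adds nothing to the test. In pair 4 each of the 4 differences was the smallest of its gene, 0.36 in ALAS1, 0.30 in CPOX, -0.64 in FECH and -0.44 in UROS. With the replicate block UROD (-0.19), which acts just after UROS, fell too. ALAS1, CPOX and UROS missed the threshold without any 1 of the libraries numbered 1 to 3, and ALAS1 and UROS also without control siRNA library 4, while FECH passed each time. UROS missed it with upper-quartile scaling too (adjusted p = 0.0669).

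Of these 4 genes, only FECH held the octamer. The site is shown because it stands in the message of the enzyme that fell most, with the octamer in capitals.
FECH, 3′ UTR, chr18:57549709-57549738 (GRCh38), minus strand: acatgtgaagaATACAGAAaagtaaccact
Among the 81 genes, 80 had annotated UTRs, and 6 of these held the octamer, where 6.42% of all tested genes did, which is near the same share.

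In mitochondrial iron and iron-sulphur cluster assembly, 1 of 28 genes fell and 0 rose, with a median of -0.10, where 3.22% of all genes fell. With the replicate block 1 rose and 4 fell, where 12.6% of all genes fell, and both counts of falls lay near these shares. The 4 included HSPA9, the mitochondrial chaperone of cluster transfer, at -0.34. ABCB10, the inner membrane transporter that stabilises the mitochondrial iron importer in mouse erythroid cells, fell to 40.8, 42.0, 40.4 and 34.7 CPM in BARD1 siRNA libraries 1 to 4, against 77.8, 75.2, 70.3 and 58.7 CPM with control siRNA. ABCB10 thus had a log2 fold change of -0.84 (SE 0.11), and the adjusted p by edgeR was 0.00317. The difference was even over the pairs, from -0.93 to -0.76, and ABCB10 passed without each library in turn. It held neither the octamer nor a heptamer. SLC25A37 (mitoferrin), the importer itself, was at 0.19 (SE 0.10) without passing (edgeR adjusted p = 0.352), and was the 1 that rose with the block.

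Of 9 genes of iron uptake, export and reduction, CYBRD1, a ferric reductase, rose to 173 ± 10.1 CPM with BARD1 siRNA, against 134 ± 6.26 CPM with control siRNA, and 8 did not pass. For CYBRD1 the log2 fold change was 0.37 (SE 0.08) and the edgeR adjusted p 0.0259. The ferrous iron transporter SLC11A2 was at -0.43 (SE 0.11, edgeR adjusted p = 0.0628), and fell with the replicate block (-0.43, adjusted p = 0.000559). Under the block 2 of the 9 rose and 2 fell, where 11% of all genes rose and 12.6% fell. CYBRD1 and the zinc and iron importer SLC39A14 (0.30) were the 2 that rose. Beside SLC11A2, HFE (-0.73), a partner of the transferrin receptor, fell. The iron exporter SLC40A1 had too few reads to pass the filter. Of 10 genes of iron sensing and ferritin turnover, EPAS1, the hypoxia factor HIF-2α, rose at a low level, to 4.79 ± 0.463 CPM with BARD1 siRNA, against 2.54 ± 0.419 CPM with control siRNA (0.92, SE 0.20, adjusted p = 0.0291). The iron regulatory protein genes ACO1 and IREB2 were at 0.03 (SE 0.07, adjusted p = 0.881) and 0.06 (SE 0.10, adjusted p = 0.83). NCOA4, the receptor that carries ferritin to the lysosome, was at 0.29 (SE 0.10, adjusted p = 0.139) and rose with the replicate block. Under the block 3 of these 10 genes of iron sensing and ferritin turnover rose and 0 fell, where 11% of all genes rose and 12.6% fell. The 3 were EPAS1 (0.92), HERC2 (0.43) and NCOA4 (0.28). CYBRD1 and EPAS1 missed the threshold without any 1 of the libraries numbered 1 to 3, and without a filter on low counts (adjusted p = 0.0579 and 0.0672).

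Of 8 genes of haem transport and binding, none passed, while 2 rose and 2 fell with the replicate block. SLC46A1, an intestinal folate transporter that also takes up haem, was at 0.51 (SE 0.21, edgeR adjusted p = 0.228) and HEBP1, a haem-binding protein, at -0.31 (SE 0.10, adjusted p = 0.136). Of 14 regulators of HMOX1 transcription none passed either, while 2 rose and 1 fell with the block. With the block 11% of all genes rose and 12.6% fell, and nothing is read from the counts of either list. NFE2L2, which encodes the activator NRF2, was at 0.11 (SE 0.16, adjusted p = 0.81), and KEAP1, its inhibitor, at -0.03 (SE 0.14, adjusted p = 0.953). Without both libraries numbered 4 NFE2L2 was at 0.19 (SE 0.07, edgeR adjusted p = 0.0346) and KEAP1 at 0.04. In that setting 3 of the 14 rose and 2 fell, where 15% of all genes rose and 15.4% fell. The small MAF genes, partners of both BACH1 and NRF2, did not pass. MAFF was at 0.32 (SE 0.20, edgeR adjusted p = 0.448), MAFG at 0.41 (SE 0.16, adjusted p = 0.181) and MAFK at -0.48 (SE 0.14, adjusted p = 0.0843). Under the block MAFF and MAFG rose and MAFK fell.

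**Figure D4:**
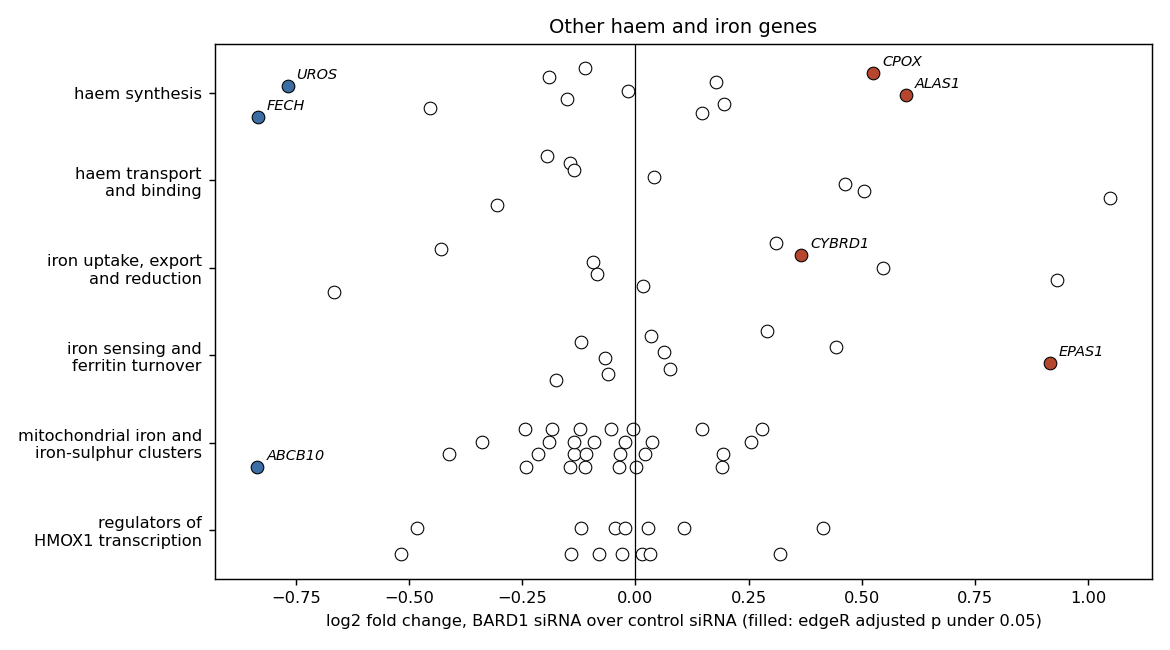
Log2 fold change, BARD1 siRNA over control siRNA, of the 81 other tested haem and iron genes by list; filled circles passed the edgeR threshold (red higher, blue lower), and height within a list only spreads the points. FECH, UROS and ABCB10 lie between -0.84 and -0.77, and CYBRD1, CPOX, ALAS1 and EPAS1 between 0.37 and 0.92.

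The genes whose profile was nearest to that of HMOX1 were found over the 8 libraries by the root mean square difference of log2 CPM, after each gene's mean was taken off, among 9739 protein-coding genes with a mean of at least 5 CPM. Ordered by this distance they were the zinc finger gene ZNF469 at 0.30, the pseudokinase gene TRIB1 at 0.41, the aggrecanase gene ADAMTS4 at 0.47, PRTG at 0.48, the podosome scaffold gene SH3PXD2A at 0.55 and the Toll-like receptor kinase gene IRAK2 at 0.55. ZNF469 averaged 17.4 ± 5.96 CPM with BARD1 siRNA and 4.05 ± 1.08 CPM with control siRNA (SD, n = 4 each). In all 6 genes, as in HMOX1, library 4 was the lowest of the BARD1 siRNA libraries, which the choice by likeness to HMOX1 favours. Of the other 9 haem and iron genes SLC48A1 was nearest, at 0.96, and BACH1 was the farthest, at 1.53. Set among the 9739 genes, where ZNF469 came first, SLC48A1 would rank 390. The measure includes the difference between the siRNAs and is a description of these libraries.

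**Figure D5:**
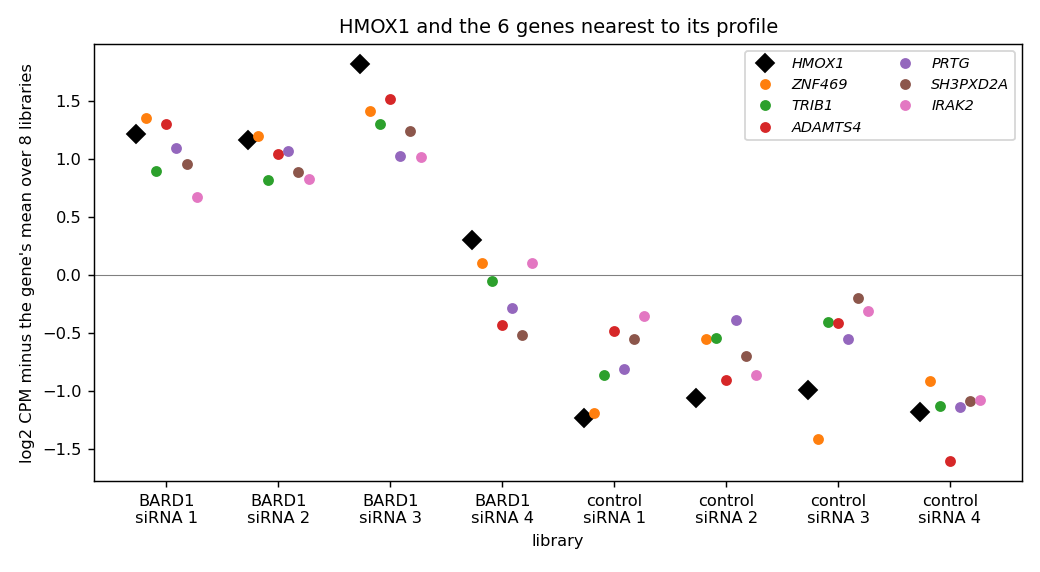
Log2 CPM minus the gene's mean over 8 libraries, for HMOX1 (black diamonds) and the 6 genes nearest to it (coloured circles), by library, BARD1 siRNA on the left. In all 7 genes BARD1 siRNA libraries 1 to 3 lie above every other library, and BARD1 siRNA library 4 lies at 0.30 in HMOX1 but within the control range in ADAMTS4 and SH3PXD2A.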

How the data were processed

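The deposited table held read counts per gene for 8 libraries. The submitters' processing notes name fastp, featureCounts and HISAT2 (listed as 2.0.5 and as 2.0), with build GRCh37 or hg19. The annotation release and strand setting are not stated in any source used here. FPKM values were the authors' own, per the file headers. Log2 fold changes and adjusted p-values of the authors' comparison were copied from the deposited table, and no source used here names their tool. A further 8 per-sample columns were not used, and 22217 rows that named no gene held 0% of counts.

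After filterByExpr and TMM scaling, edgeR 4.0.16 in R 4.3.3 compared the counts by the two-sided quasi-likelihood F-test of BARD1 siRNA against control siRNA without further terms, with Benjamini-Hochberg adjustment over 14528 genes and a threshold of 0.05. CPM were scaled by TMM and given as mean ± SD, and SE were derived from the F statistic. The test was checked on counts simulated without an effect of replicate number, with the spread taken from the fit with the replicate block. That check does not cover the departure of the libraries numbered 4. At these depths 3 counts were worth 0.0842 to 0.125 CPM, and this floor covers counting error only. No pair of libraries within a group agreed within sampling noise (chi-square per degree of freedom 6.06 or more).

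Over 10146 genes, the deviations from the group mean were correlated between libraries of equal number (0.49, 0.487, 0.596 and 0.856 for numbers 1 to 4). Libraries of unequal number were not compared, and the libraries numbered 4 stood apart in both groups. These values therefore cannot show that the numbers pair the libraries. The pairs and the replicate block rest on the labels' numbers alone. Alternatives were RLE and upper-quartile scaling, DESeq2 (version 1.42.0), no filter, the replicate block, leaving out each library and leaving out both numbered 4. The genes and lists were chosen with earlier results of these data known. Named genes outside the 10 were up to 4 per list past the threshold by smallest p, or the 2 of smallest p where none passed, and BARD1. UROD, HSPA9, SLC25A37, SLC11A2, SLC40A1, ACO1, IREB2, NCOA4, HERC2, SLC39A14, HFE, MAFF, NFE2L2 and KEAP1 were added after their values were seen. Genes like HMOX1 were the 6 nearest, with a prior count of 2. UTRs came from GENCODE release 29 on GRCh38, with all 10 genes matched; coordinates of genes are GRCh37.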

Additional observations from a re-analysis of the deposited data

Results flagged for a closer look

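Of 52 groups of 4 values, 6 had 1 value separated from the rest by a gap above Dixon's critical value. Chance alone does this in about 1 of 20 groups, here 2.6. Each of the 6 was a library numbered 4. TFRC stood at 788 CPM in BARD1 siRNA library 4, against 1553 to 1608 CPM in the other 3. UROS stood at 47.7 CPM in BARD1 siRNA library 4, against 27.0 to 29.7 CPM, and at 64.6 CPM in control siRNA library 4, against 53.4 to 55.2 CPM. FECH stood at 54.6 CPM in BARD1 siRNA library 4, against 39.8 to 41.7 CPM. MAFG stood at 53.7 CPM in control siRNA library 4, against 60.3 to 61.3 CPM, and BARD1 at 20.8 CPM, against 26.9 to 27.98 CPM.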

How the results depend on the processing

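Of the 10 genes, 4 passed the threshold over all libraries, and the count was 1 to 6 without 1 library: 1, HMOX1 alone, without any 1 of the 6 libraries numbered 1 to 3, and 6 without BARD1 siRNA library 4. None of the 10 genes changed direction in any setting, nor did BARD1 or the genes named by the rule on lists. The genes added after their values were seen were not followed through every setting. Of these, KEAP1 was at -0.03 over all libraries and at 0.04 without both libraries numbered 4. Of the other haem and iron genes 7 passed, against 11 by DESeq2, 25 with the replicate block, 29 without both libraries numbered 4 and 2 to 18 without 1 library, where the 2 in each case numbered 1 to 3 stood against 18 without BARD1 siRNA library 4. Over all genes 733 passed, against 1264 by DESeq2, 3430 with the replicate block, 4428 without both libraries numbered 4 and 178 to 2506 without 1 library. The cause of these shifts was not tested, though leaving out a library also leaves fewer samples. Levels in FPKM moved by less than 1 SD when made from TMM-scaled library sizes.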
